A study of Mus musculus with 2 samples.

Results

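The genes described here are 49 named genes of the striated-muscle sarcomere and of excitation-contraction coupling, the chain from nerve signal to calcium release. They were chosen by name and taken from the 43346 gene rows of each library by gene identifier without version and GENCODE symbol, and all 49 had a row. They were measured by total RNA-seq of the facial prominence, the embryonic tissue that builds the face, from healthy mouse embryos of strain B6NCrl at 13.5 days. Both libraries were made from 10 ng of RNA above the size of small RNAs, extracted with Ambion mirVana reagents, and each came from embryos of both sexes pooled together. They are labelled biological replicates 1 and 2, have separate biosample identifiers and share 1 donor identifier, and they form 1 group. The series therefore holds no contrast, no p-value is given, and a standard deviation (SD, n = 2) covers biosample and library together.

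In a sarcomere, myosin thick filaments pull on actin thin filaments, and the troponin complex lets them do so only when calcium is bound. Acetylcholine receptors start the electrical signal in the fibre, the voltage sensor Cacna1s passes it to the calcium channel Ryr1, and calsequestrins hold the calcium that Ryr1 releases. Most of these proteins come as isoforms from separate genes, used in embryonic, slow, fast or heart muscle, and several genes named for the heart are also used by young skeletal fibres. The muscles of the face form from head mesoderm during midgestation, so their fibres are newly made at this age.

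Replicate 1 held 30451502 expected counts and replicate 2 held 23777465, and the members took 13623 and 12264 of them, or 0.0477% and 0.054% of the counts on gene rows. Levels are given in TPM, which are abundances divided by transcript length and scaled to a fixed total per library, and so can be set side by side between genes. Replicate 2 stood apart in genes of other organs. All 10 genes of a liver list were more than 2-fold higher there, with summed levels of 15.6 and 389 TPM. A heart list was divided: of its 9 tested genes that are not members, 5 were more than 2-fold higher and 2 more than 2-fold lower. Over all genes averaging at least 10 expected counts, 5.05% were that much higher in replicate 2 and 1.58% that much lower. Since this is bulk tissue, fewer muscle cells and less RNA per cell cannot be told apart in any value below.

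Of the 49 members, 29 (59.2%) reached 1 TPM in each of the libraries, against 60.9% of 21474 protein-coding genes. Another 8 reached 1 TPM in replicate 2 only, 0 in replicate 1 only, and 12 stayed under it in both. The members' median of mean levels was 3.46 TPM, with 1.66 in replicate 1 and 3.32 in replicate 2, against 4.68 TPM over protein-coding genes. Levels ran from Actc1, at percentile 94.2 of protein-coding genes, to the adult fast myosin gene Myh4, at percentile 20.2. Only 12 members had a mean of 10 TPM or more: both actins, 4 myosin light chains (Myl1, Mylpf, Myl4 and Myl2), 5 troponins (Tnnt1, Tnnc1, Tnni1, Tnnt2 and Tnnc2) and titin. Myl2 belongs there through replicate 2 alone, and titin through its short transcripts, as given further on.

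**Figure D1:**
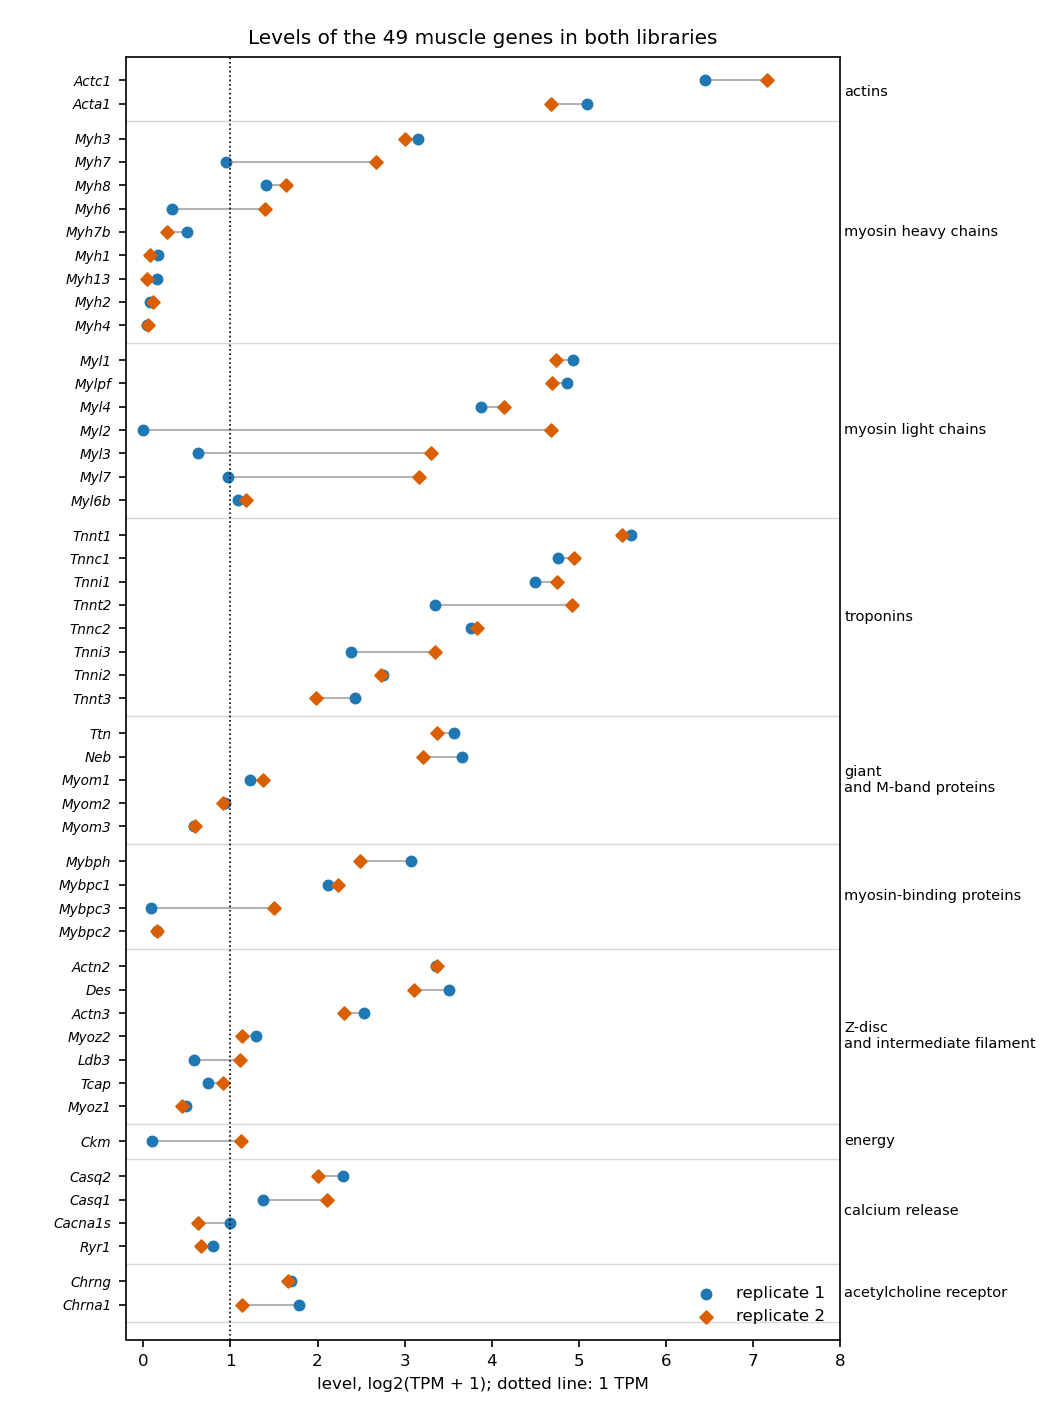
Level of each of the 49 members as log2(TPM + 1) in replicate 1 (circles) and replicate 2 (diamonds), joined by a line and grouped by role, with a dotted line at 1 TPM. The actins and troponins lie to the right and the adult fast heavy chains at the left edge, and the long lines belong to Myl2, Myl3, Myl7, Myh7, Myh6, Mybpc3 and Tnnt2, each higher in replicate 2.

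Actc1 had the highest level of all 49 members in both libraries. Actc1, the cardiac actin that embryonic skeletal fibres also use (chromosome 2, 114047282 to 114053548 of GRCm38, minus strand), stood at 86.7 TPM in replicate 1 and 142 in replicate 2, a mean of 114 ± 39.0 (SD, n = 2). Acta1, the skeletal actin that takes over in mature muscle (chromosome 8, 123891769 to 123894751, minus strand), stood at 33.1 and 24.6 TPM, a mean of 28.9 ± 6.02. Actc1 was thus the higher actin in both libraries, by 1.96 ± 0.81 on the log2 scale, and the deposited 95% credibility intervals of the 2 genes did not overlap in either. These intervals, used for all pairs below, cover the assignment of reads to genes and not the spread between embryos. They do not always hold the TPM given. In replicate 1, Tnnt3 stood at 4.37 TPM with an interval of 5.001 to 7.666, and Myl2 at 0 with 0.712 to 3.247. In replicate 2, Myh6 stood at 1.64 TPM with an interval of 1.875 to 4.155. Intervals apart therefore give an order and do not bound the log2 difference printed beside them. Actc1 made up 72.3% of the summed actin level in replicate 1 and 85.2% in replicate 2. Ratios of replicate 2 to replicate 1 were taken from expected counts scaled by the trimmed mean of M-values (TMM). With this scaling the actins differed in opposite directions, at 1.53 for Actc1 (95% interval of counting 1.45 to 1.62) and 0.694 for Acta1 (0.622 to 0.773). Scaled to the spike-ins instead, the log2 ratios were 1.175 for Actc1 and 0.032 for Acta1, so the direction for Acta1 depends on the scaling. Intervals of counting cover counting error only, since the reads carry no molecular identifiers. The annotated transcripts of the actins shared no stretch of 100 nt, so reads of that length that match both genes exactly were not possible.

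The 250 bases before the RefSeq start of both actin genes are shown because they carry the CArG box, the binding motif of serum response factor. Bases 5′ to 3′ on the gene's strand are given (GRCm38.p6, from RefSeq), with motif matches in capitals: the CArG box in both, and the E-box CAGCTG, a motif bound by myogenic factors of the Myod1 type, in Acta1.
Actc1: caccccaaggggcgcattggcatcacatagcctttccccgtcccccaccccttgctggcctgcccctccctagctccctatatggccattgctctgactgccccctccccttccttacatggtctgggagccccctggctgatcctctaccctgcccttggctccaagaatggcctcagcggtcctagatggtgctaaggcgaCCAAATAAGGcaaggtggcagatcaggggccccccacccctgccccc
Acta1: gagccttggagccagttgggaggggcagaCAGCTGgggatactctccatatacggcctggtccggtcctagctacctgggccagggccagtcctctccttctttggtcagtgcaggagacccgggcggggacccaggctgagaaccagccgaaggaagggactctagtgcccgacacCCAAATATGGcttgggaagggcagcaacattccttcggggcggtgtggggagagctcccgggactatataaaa
The Actc1 window is chr2:114052876-114053125 (minus strand) and its CArG box begins 47 bases before the RefSeq start. The whole window lies within the longer GENCODE gene (chromosome 2, 114047282 to 114053548). The Acta1 window is chr8:123894776-123895025 (minus strand), with the CArG box 73 and the E-box 221 bases before the start. Windows were found for 42 of the 49 members, 47 windows in all. CArG boxes lay in 8 of these 47 windows (7 members: Acta1, Actc1, Ldb3, Myh4, Myl3, Myl7 and Myom1), against 1.47% of 32851 windows of the same length. The MEF2 site, the motif of the myocyte enhancer factors, lay in 8 windows of 8 members (Casq2, Mybpc3, Myh1, Myh4, Myh8, Myom3, Myoz2 and Ttn), against 2.92%. The E-box lay in 18 windows of 17 members, against 13.0%. Each of these motifs reads the same on both strands, none of the matches shown here overlaps another, and a match describes the letters and not a bound site.

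Among the myosin heavy chains, the motors of the thick filament, the embryonic isoform led. Myh3, the embryonic heavy chain, was at 7.89 TPM in replicate 1 and 7.04 in replicate 2 (mean 7.47 ± 0.60). Myh8, the perinatal heavy chain that follows it in development, was at 1.66 and 2.12 TPM. Myh3 exceeded Myh8 in both libraries by 1.99 ± 0.37 on the log2 scale, with credibility intervals apart. The adult fast heavy chains Myh1, Myh2 and Myh4 and the extraocular isoform Myh13 had means between 0.035 and 0.085 TPM, from 3.07 to 7.82 expected counts per library, so neither their order nor a difference between libraries was detectable at this depth. Myh7b, an ancient slow-type heavy chain gene, was at 0.42 and 0.21 TPM from 28 and 10 counts.

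The 2 heavy chains of the heart behaved differently from Myh3. Myh7, the beta heavy chain of heart and slow fibres, was at 0.93 TPM in replicate 1 and 5.36 in replicate 2, from 117 and 522 expected counts. Myh6, the alpha heavy chain of the heart, was at 0.26 and 1.64 TPM, from 33.5 and 158 counts. Their ratios of replicate 2 to replicate 1 were 5.46 (4.46 to 6.73) and 5.77 (3.91 to 8.50). Myh7 therefore made up 8.11% of the summed heavy chain level in replicate 1 and 32.4% in replicate 2, while the share of Myh3 was 68.8% and 42.5%. Myh3 exceeded Myh7 by 3.09 on the log2 scale in replicate 1, and by 0.39 with overlapping intervals in replicate 2. Myh6 and Myh7 lie beside each other on chromosome 14 and share 695 stretches of 100 nt, 10.0% of those in Myh6 and 7.71% of those in Myh7, so part of their reads was divided by the authors' estimate. Of the 49 members, 10 share such a stretch with another gene, 8 of them heavy chains (between 1.13% and 10.0% of their stretches).

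The light chains, which bind the myosin neck, were led by the skeletal pair. Myl1, the fast essential light chain, was at 29.6 and 25.7 TPM, and Mylpf, the fast regulatory light chain, at 28.1 and 24.9 TPM. Their log2 ratio was 0.06 ± 0.02 with overlapping intervals in both libraries, so the essential and regulatory chains of fast fibres stood at like levels. Myl4, an embryonic and atrial essential light chain, was at 13.7 and 16.7 TPM, below Myl1 in both libraries by 0.87 ± 0.35 on the log2 scale. Myl6b, a slow and non-muscle essential light chain, was lower, at 1.12 and 1.27 TPM. Myl1 stood above Myl4, and Myl4 above Myl6b, in both libraries, while Myl3, the remaining essential light chain, lay below Myl6b in replicate 1 and above it in replicate 2.

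The heart light chains were close to 0 in replicate 1 and not in replicate 2. Myl2, the ventricular and slow regulatory light chain, had 0 counts in replicate 1 and 196 in replicate 2 (24.6 TPM), at least 80.0-fold higher against a floor of 3 counts in replicate 1. That bound leaves out counting error in replicate 2, and the exact interval of counting begins at 64.4. Myl3, the matching ventricular and slow essential light chain, had 9 and 105 counts, or 0.55 and 8.87 TPM, a ratio of 14.3 (7.24 to 32.1). Myl7, the atrial regulatory light chain, had 10 and 63 counts, or 0.96 and 7.95 TPM, a ratio of 7.71 (3.93 to 16.9). In replicate 2 the regulatory light chains were thus divided between Mylpf (43.3%), Myl2 (42.8%) and Myl7 (13.8%), whereas Mylpf alone made up 96.7% in replicate 1. Myl4 exceeded Myl7 in both libraries, by 3.83 and 1.07 on the log2 scale. The Myl3 gene shares 95 of its 2044 exon bases with Pth1r on the opposite strand, a parathyroid hormone receptor gene with 5446 and 3597 counts. Whether the libraries keep strand is not stated in the labels, so some Myl3 reads may belong to Pth1r, which was at 120 and 104 TPM. Its part in the Myl3 difference was not tested.

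**Figure D2:**
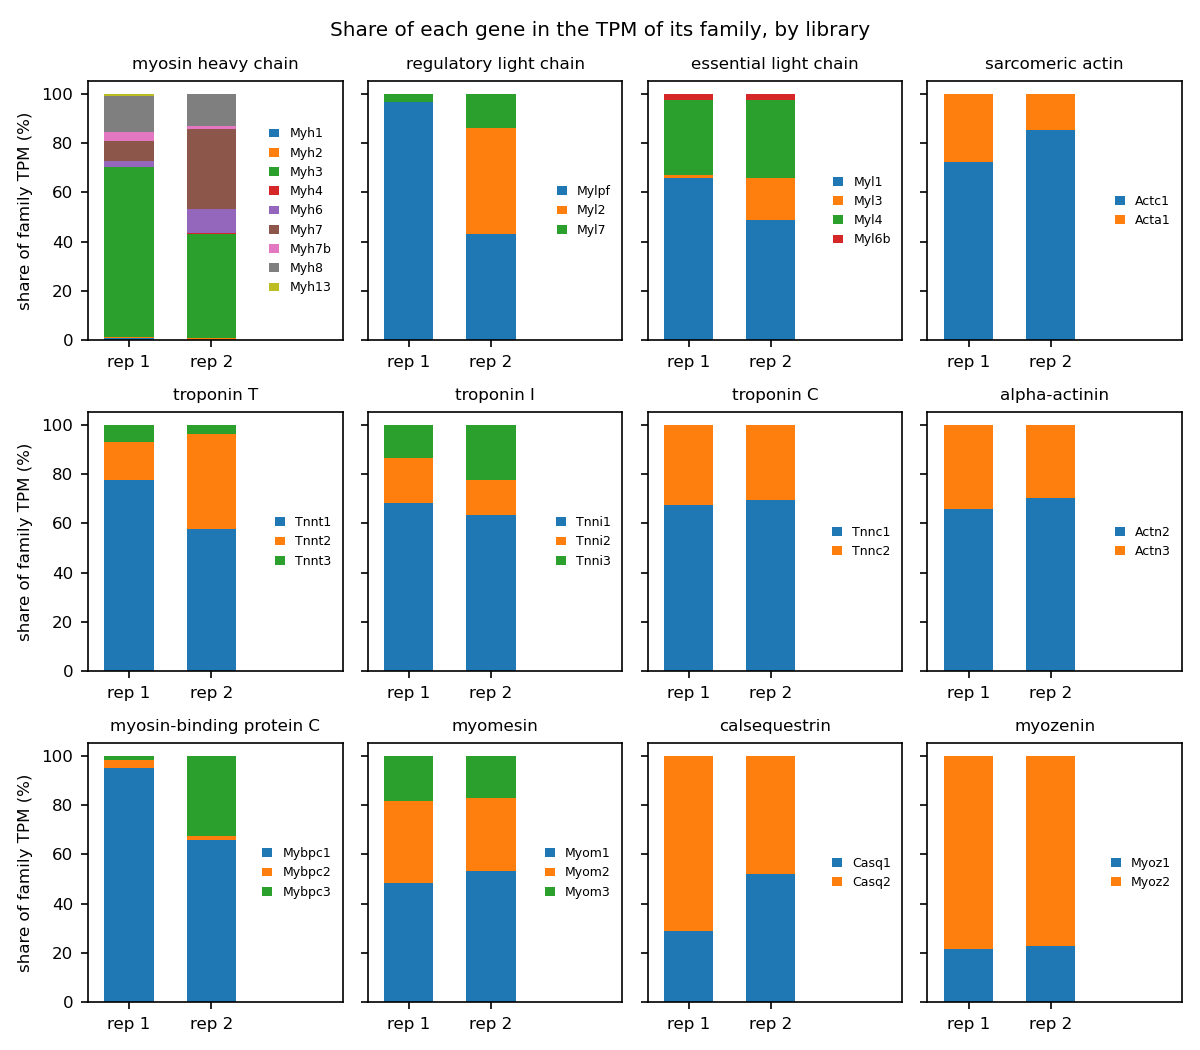
Share of each gene in the summed TPM of its family, in percent, as stacked bars for replicate 1 (rep 1) and replicate 2 (rep 2) in 12 families. Mylpf takes 96.7% of the regulatory light chains in replicate 1 and 43.3% in replicate 2, where Myl2 and Myl7 take more, while troponin C and alpha-actinin are divided alike in both.

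Each of the 8 troponin genes reached 1 TPM in both libraries, and the slow skeletal isoform led each of the 3 subunits. Tnnt1, slow troponin T, which anchors the complex on tropomyosin, was at 47.5 and 44.2 TPM (mean 45.8 ± 2.34). Tnni1, slow troponin I, the inhibitory subunit, was at 21.6 and 25.8 TPM (mean 23.7 ± 2.99). Tnnc1, the calcium sensor of slow and heart muscle, was at 26.2 and 29.8 TPM (mean 28.0 ± 2.57). The fast isoforms were lower in both libraries, with credibility intervals apart. Tnnt3, fast troponin T, was at 4.37 and 2.94 TPM, under Tnnt1 by 3.68 ± 0.33 on the log2 scale. Tnni2, fast troponin I, was at 5.76 and 5.63 TPM, under Tnni1 by 2.05 ± 0.21. Tnnc2, the fast calcium sensor, was at 12.6 and 13.2 TPM, under Tnnc1 by 1.12 ± 0.09. Tnnc2 shares 592 of its 800 exon bases with Ube2c on the opposite strand, a cell-cycle gene at 337 and 315 TPM, so its level is uncertain where strand is not known.

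The heart troponins differed between the libraries. Tnnt2, the cardiac troponin T that young skeletal fibres also make, was at 9.17 TPM in replicate 1 and 29.2 in replicate 2, a ratio of 2.75 (2.34 to 3.25). Tnni3, the adult heart isoform of troponin I, was at 4.22 and 9.15 TPM, a ratio of 2.82 (1.92 to 4.19). Tnnt1 remained above Tnnt2 in both libraries, by 2.37 on the log2 scale in replicate 1 and by 0.60 in replicate 2. Tnni1 likewise stood above Tnni3, by 2.35 and 1.496 on the log2 scale. The Tnni3 gene overlaps Dnaaf3, a gene for cilia assembly on the same strand, in 86 of its 2063 exon bases.

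Titin and nebulin, the giant proteins that span the thick and thin filaments, had like levels in TPM, but these rest on short transcripts. Ttn was at 10.9 and 9.39 TPM and Neb at 11.6 and 8.23 TPM, with overlapping intervals. A 2159 nt transcript, Ttn-215, held 53.4% and 63.7% of the titin level, although the longest coding model, Ttn-203, is 106824 nt. The transcript Neb-204, not annotated as coding, held 76.7% and 79.4% of the nebulin level, against a longest coding model of 22489 nt. With counts divided by the longest coding transcript instead, Ttn was at 0.779 and 0.732 and Neb at 1.32 and 0.983 on the TPM scale, and Neb was the higher of the 2 in both libraries (log2 ratio of Ttn to Neb -0.59). In the M-band, which links thick filaments at the centre of the sarcomere, Myom1 was at 1.34 and 1.60 TPM, Myom2 at 0.92 and 0.89 and Myom3 at 0.50 and 0.51. Myom1 exceeded Myom3 by 1.54 ± 0.16 on the log2 scale with intervals apart, and overlapped Myom2. It shares 207 of its 10459 exon bases with Myl12a on the opposite strand. Myl12a had 9502 and 7425 counts, beside 151 and 136 for Myom1, so the level and rank of Myom1 are uncertain where strand is not known.

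Of the myosin-binding proteins, which stabilise the thick filament, Mybph and the slow isoform Mybpc1 led. Mybph was at 7.44 and 4.59 TPM, a ratio of 0.575 (0.463 to 0.713). It shares 1162 of its 2329 exon bases with the adenosine receptor gene Adora1 on the opposite strand, which had 81.8 and 72.0 counts beside 272 and 128 for Mybph. Mybpc1 was at 3.36 and 3.72 TPM and exceeded the fast isoform Mybpc2, at 0.11 TPM in each library, by 5.01 ± 0.10 on the log2 scale. Mybpc3, the heart isoform, had 5 counts in replicate 1 and 120 in replicate 2, or 0.06 and 1.83 TPM, a ratio of 29.4 (12.2 to 92.1). Its share of the 3 C-type genes was 1.70% in replicate 1 and 32.3% in replicate 2. The log2 ratio of Mybpc1 to Mybpc3 was 5.81 in replicate 1 and 1.02 in replicate 2, and its intervals no longer stood apart in both when counts were divided by the longest coding transcript.

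Upstream windows of Mybpc3 and Myl7 are shown because both genes are restricted to the heart in the adult and both were more than 2-fold higher in replicate 2. They do not carry the same motifs: Mybpc3 has a MEF2 site and an E-box CAGCTG, and Myl7 a CArG box, all in capitals.
Mybpc3: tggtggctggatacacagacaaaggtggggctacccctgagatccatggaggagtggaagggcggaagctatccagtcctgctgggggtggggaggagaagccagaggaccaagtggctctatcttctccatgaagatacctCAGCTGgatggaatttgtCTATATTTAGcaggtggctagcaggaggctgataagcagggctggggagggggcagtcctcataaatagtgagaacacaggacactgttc
Myl7: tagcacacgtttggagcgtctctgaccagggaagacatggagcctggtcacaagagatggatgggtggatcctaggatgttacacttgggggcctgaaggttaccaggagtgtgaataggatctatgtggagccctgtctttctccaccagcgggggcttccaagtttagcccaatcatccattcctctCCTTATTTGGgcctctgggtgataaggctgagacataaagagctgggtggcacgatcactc
The Mybpc3 window is chr2:91117894-91118143 (plus strand), with the MEF2 site 90 and the E-box 108 bases before the start. The Myl7 window is chr11:5898783-5899032 (minus strand), with the CArG box 61 bases before the start.

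At the Z-disc, where thin filaments are anchored, the alpha-actinin Actn2 and the intermediate filament gene Des were the highest of 7 members. Actn2, the alpha-actinin of all striated muscle, was at 9.30 and 9.32 TPM, and Actn3, the fast alpha-actinin, at 4.78 and 3.93 TPM. Actn2 exceeded Actn3 in both libraries by 1.10 ± 0.20 on the log2 scale. Des, which ties myofibrils to each other, was at 10.4 and 7.60 TPM, a ratio of 0.703 (0.616 to 0.802). Myoz2, the calsarcin of heart and slow fibres, was at 1.45 and 1.20 TPM, above its fast counterpart Myoz1 at 0.40 and 0.36 by 1.80 ± 0.09. Ldb3, a Z-disc adaptor also called Cypher, was at 0.49 and 1.16 TPM from 37 and 68 counts, a ratio of 2.25 (1.49 to 3.45). Tcap, the titin cap, had 12 counts in each library. Ckm, the creatine kinase that regenerates ATP in mature muscle, had 2 counts in replicate 1 and 24.9 in replicate 2, a ratio of 15.2 with a wide interval of 3.82 to 133.

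The calcium release genes were near or below 1 TPM except for the calsequestrins. Casq2, the calsequestrin of heart and slow fibres, was at 3.89 and 3.03 TPM, and Casq1, the fast isoform, at 1.59 and 3.32 TPM. Casq2 was above Casq1 in replicate 1, by 1.29 on the log2 scale, and not in replicate 2, where the log2 ratio was -0.13 with overlapping intervals. Casq1 was 1 of the members past 2-fold, at a ratio of 2.10 (1.40 to 3.21). In TPM its leading transcript in both libraries, Casq1-202, at 68.8% and 57.8% of the gene's level, was annotated as a retained intron. By counts the coding Casq1-201 had 18.35 and 39.44, against 20.65 and 27.56 for Casq1-202, so the coding form led in replicate 2. Ryr1, the skeletal calcium release channel, was at 0.74 and 0.58 TPM from 240 and 142 counts. Cacna1s, the voltage sensor that opens it, was at 0.99 and 0.55 TPM from 47 and 28 counts. Their intervals overlapped in TPM. Per longest coding transcript Ryr1 exceeded Cacna1s in both libraries, with a log2 ratio of 1.04.

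The acetylcholine receptor members were the alpha subunit Chrna1 and the gamma subunit Chrng, the latter specific to the fetal receptor. Chrna1 was at 2.44 TPM in replicate 1 and 1.19 in replicate 2, from 221 and 82 counts, a ratio of 0.454 (0.348 to 0.588). Chrng was at 2.24 and 2.17 TPM, from 99 and 85 counts, a ratio of 1.05 (0.777 to 1.42). The subunits thus stood at like levels in replicate 1 (log2 ratio of Chrna1 to Chrng 0.12, intervals overlapping) and apart in replicate 2 (-0.87). Chrne, the epsilon subunit that replaces gamma after birth, had 0 and 1 counts, both under the floor of 3. The upstream windows of both subunit genes are shown because they carry the same motif, the E-box CAGCTG in capitals, at 2 places each, while their ratios between the libraries differed.
Chrna1: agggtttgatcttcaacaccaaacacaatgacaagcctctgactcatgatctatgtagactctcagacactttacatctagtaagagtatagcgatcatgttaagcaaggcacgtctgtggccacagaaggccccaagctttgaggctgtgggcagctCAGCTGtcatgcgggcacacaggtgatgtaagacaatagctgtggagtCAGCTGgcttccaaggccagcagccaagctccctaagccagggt
Chrng: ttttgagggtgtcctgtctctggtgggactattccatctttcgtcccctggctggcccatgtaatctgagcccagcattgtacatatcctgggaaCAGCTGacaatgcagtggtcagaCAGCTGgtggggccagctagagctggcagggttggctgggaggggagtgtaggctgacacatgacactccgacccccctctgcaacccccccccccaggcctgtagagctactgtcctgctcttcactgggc
The Chrna1 window is chr2:73580339-73580588 (minus strand), with E-boxes 92 and 44 bases before the start. The Chrng window is chr1:87205561-87205810 (plus strand), with E-boxes 155 and 132 bases before the RefSeq start, which lies within the longer GENCODE gene (chromosome 1, 87204657 to 87212694).

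Across the 24 pairs of related members, 15 had the same order in both libraries with intervals apart. Of the 43 members averaging at least 10 expected counts, 11 (25.6%) were more than 2-fold higher in replicate 2, against 5.05% of 17707 genes, and 2 (4.65%, Chrna1 and Myh7b) more than 2-fold lower, against 1.58%. The median ratio of the 43 was nonetheless 0.978, beside 0.990 over all genes, with 20 members above 1 and 23 below. The ratio for Myh7b was 0.437 (0.189 to 0.927), from few counts (28 and 10). Myh7b shares 37 of its 6634 exon bases with Trpc4ap on the opposite strand, which had 6264 and 4967 counts. The level and ratio of Myh7b are therefore uncertain where strand is not known. The 11 higher members were Myl2, Mybpc3, Ckm, Myl3, Myl7, Myh6, Myh7, Tnni3, Tnnt2, Ldb3 and Casq1. When library sizes were scaled to the spike-ins, the median of all genes shifted to 0.545 on the log2 scale (a ratio of 1.46), 12 members were past 2-fold higher, against 11.7% of all genes, and 0 lower, against 0.503%. A change of scaling multiplies every ratio by the same factor, so the order of the members could not change.

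**Figure D3:**
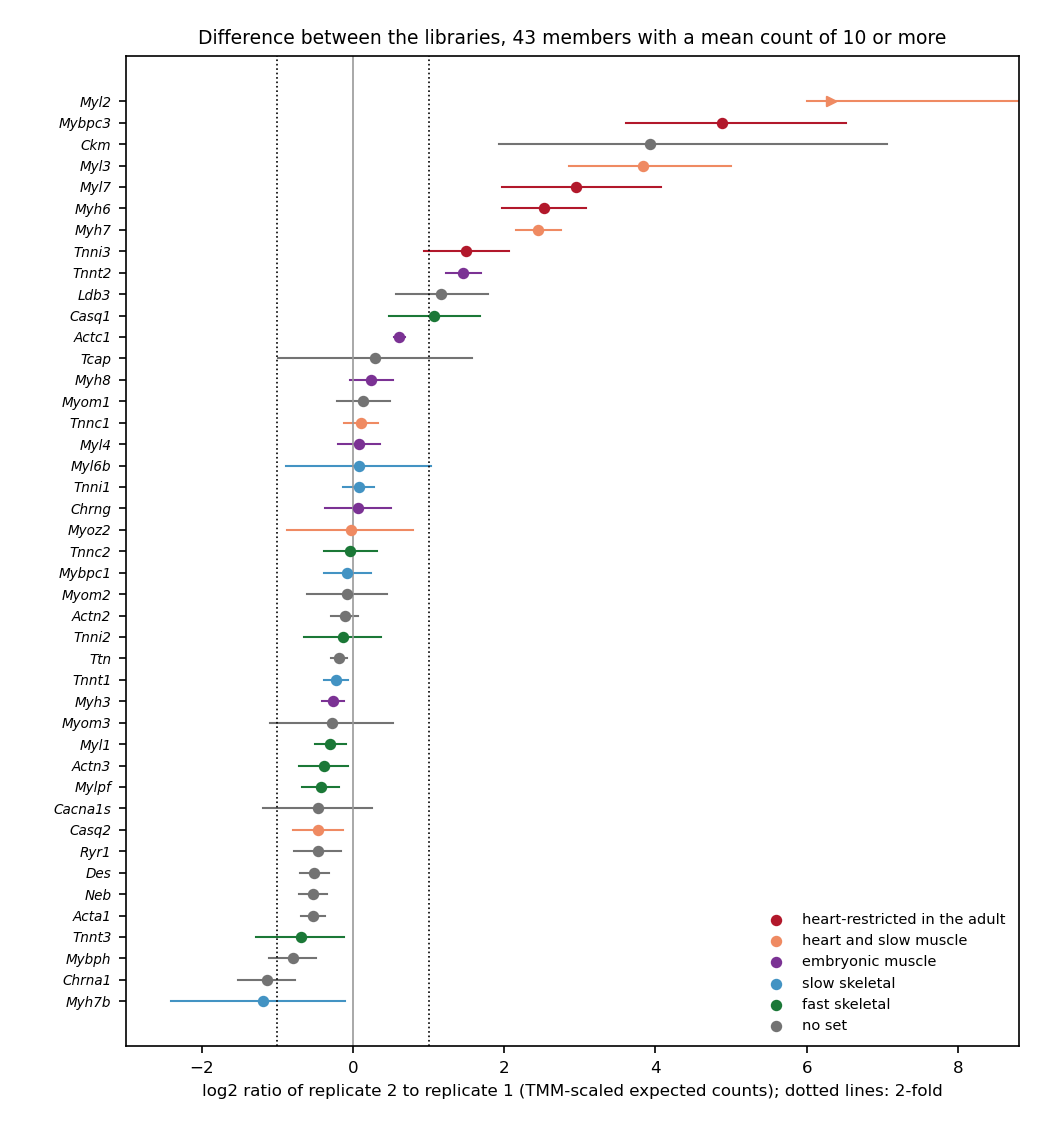
Log2 ratio of replicate 2 to replicate 1 for the 43 members averaging at least 10 expected counts, with 95% intervals of counting, coloured by fibre type, and dotted lines at 2-fold. The members at the top are mostly those of the heart (red and orange), most skeletal members lie between the lines, and the arrowhead for Myl2 marks a lower bound.

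Sorted by where each isoform is used in the adult, as textbooks give it, the members differed by set. All 4 heart-restricted members (Myh6, Myl7, Tnni3 and Mybpc3) were past 2-fold higher, with a median ratio of 6.74 and a summed level of 5.50 TPM in replicate 1 and 20.6 in replicate 2. Of the 6 members shared by heart and slow muscle, Myh7, Myl2 and Myl3 were past 2-fold higher, while Tnnc1 (1.08), Myoz2 (0.979) and Casq2 (0.727) were not. Of the 6 embryonic isoforms, Tnnt2 was past 2-fold higher, and Actc1 followed at 1.53. The 5 slow skeletal members had a median ratio of 0.9499, with summed levels of 74.0 and 75.2 TPM. Of the 7 tested fast skeletal members, 6 had ratios below 1 and 1, Casq1, was past 2-fold, and their median was 0.812. With spike-in scaling, the log2 ratios of Mylpf, Myl1, Tnni2 and Tnnc2 were 0.135, 0.259, 0.424 and 0.527, and that of Tnnt3 was -0.13. The side of 1 on which Mylpf, Myl1, Tnni2 and Tnnc2 lie therefore depends on the scaling, while Tnnt3 lay below 1 with either. These sets were drawn up with earlier results of these data known, so the counts describe the libraries and support nothing further. Without the 10 members of both heart sets, 4 of the remaining 33 tested members (Tnnt2, Ldb3, Casq1 and Ckm) were past 2-fold higher, against 5.05% of all genes. This alternative was chosen after the data were seen, and it still holds genes that the heart uses too, such as Tnnt2.

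Heart genes outside the members were divided. Of 12 such genes, 2 reached 1 TPM in replicate 1 and 5 in replicate 2, and their summed level was 19.5 and 26.0 TPM. Of the 9 tested, 5 were past 2-fold higher in replicate 2 (Nppa, Nkx2-5, Pln, Tbx20 and Kcne1) and 2 past 2-fold lower (Hand1 and Tbx5). Nppa, the atrial natriuretic peptide, had 3 counts in replicate 1 and 102 in replicate 2, or 0.19 and 8.26 TPM, a ratio of 41.6 (13.8 to 205). Nkx2-5, a homeobox factor of the heart, was at 0.30 and 1.96 TPM, a ratio of 6.12 (2.95 to 14.2), and Pln, the calcium pump inhibitor phospholamban, at 0.94 and 2.48 TPM, a ratio of 2.45. Hand1, a factor of the heart and of the mandibular arch, was at 3.80 and 1.03 TPM, a ratio of 0.245 (0.158 to 0.367). Tbx5, a T-box factor of heart and forelimb, was at 0.81 and 0.37 TPM, a ratio of 0.427 (0.253 to 0.695). Sln, sarcolipin, was at 12.8 and 9.54 TPM. Of the 10 liver genes, 2 reached 1 TPM in replicate 1 and all 10 in replicate 2. Among them, Afp, the fetal albumin-like protein, was at 0.45 and 84.7 TPM, Alb, albumin, at 1.34 and 46.5 TPM, and Trf, transferrin, at 11.5 and 110 TPM. The part of heart or liver RNA in the members' differences was not tested.

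**Figure D4:**
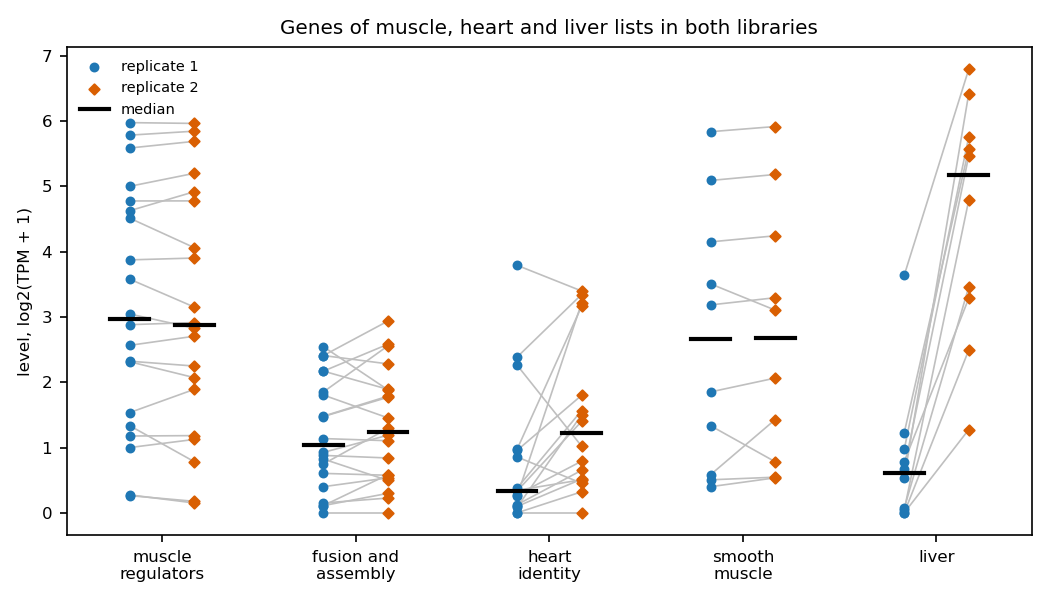
Level as log2(TPM + 1) of the genes in 5 lists, in replicate 1 (circles) and replicate 2 (diamonds), joined by lines, with black bars at the medians. All 10 liver genes and 9 of the 13 tested heart identity genes, 4 of these 9 being members, are past 2-fold higher in replicate 2. Another 2 heart identity genes are past 2-fold lower, while the muscle regulators and smooth muscle genes have like medians in both.

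Among the regulators of skeletal muscle, 20 genes were listed. Of these, 17 reached 1 TPM in each library, and of the 18 tested 0 were past 2-fold in either direction, with a median ratio of 0.948. High on the list were Pax3, a paired-box factor also active in neural crest, at 61.9 and 61.4 TPM, and the enhancer factor Mef2c at 54.1 and 56.5 TPM, both also used by other cells of the face. Myod1, the myogenic determination factor, was at 10.9 and 7.88 TPM, a ratio of 0.672 (0.568 to 0.794), and Myog, the differentiation factor myogenin, at 21.8 and 15.7 TPM, a ratio of 0.671 (0.588 to 0.765). Myf5 and Pax7, markers of muscle precursors, were at 4.00 and 3.75 TPM and at 1.90 and 2.71 TPM. These factors of skeletal muscle were thus detected in both libraries. Myf6, a late myogenic factor, had 5 and 2 counts.

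Further muscle genes that are not members were measured as lists. In the fusion and assembly list, 10 of 20 genes reached 1 TPM in each library, and of 17 tested 1 was past 2-fold higher and 2 lower. Its highest genes were the myosin chaperone Unc45b (4.31 and 6.66 TPM), the adhesion gene Jam2 (3.50 and 4.99) and M-cadherin Cdh15 (4.31 and 3.86). Mymk, the myoblast fusion protein Myomaker, was at 4.83 and 2.69 TPM, a ratio of 0.495 (0.353 to 0.686). Of 16 tropomyosins and other filament genes, 12 reached 1 TPM in both, led by Tpm1 (614 and 692 TPM), Tpm4 (468 and 487) and Tpm3 (372 and 403), which non-muscle cells also make. Tropomyosin is the thin-filament partner of troponin, and these 3 genes stood above every troponin gene in level. Of 24 further excitation-contraction genes, 14 reached 1 TPM in both, led by Asph (60.3 and 64.2 TPM), Bin1 (61.9 and 58.9) and the calcium pump Atp2a2 (23.9 and 26.5), all of them broadly expressed. In that list 2 of 24 were past 2-fold higher (Pln and the chloride channel Clcn1) and 1 lower, Jsrp1, a protein of the triad junction, at 1.66 and 0.58 TPM.

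The nerve-muscle junction and metabolic lists differed little between the libraries. Of 10 endplate genes, 5 reached 1 TPM in both, led by Agrn (62.9 and 70.8 TPM), Lrp4 (7.19 and 7.01) and the receptor beta subunit Chrnb1 (4.08 and 4.35), and 0 of 9 tested were past 2-fold. Of 14 metabolic genes, 8 reached 1 TPM in both, led by Ckb (86.3 and 101 TPM), Pfkm (34.8 and 32.8) and Eno3 (14.7 and 13.9), and 1 of 10 tested was past 2-fold higher. Ckb, the brain-type creatine kinase found in many tissues, thus far exceeded the muscle type Ckm. Of 10 smooth muscle genes, 6 reached 1 TPM in both, led by Acta2 (56.2 and 59.4 TPM), Smtn (33.1 and 35.3) and Tagln (16.8 and 17.9), with a median ratio of 1.01. Cnn1, calponin, at 0.50 and 1.69 TPM, was the 1 smooth muscle gene past 2-fold higher (3.16, 1.95 to 5.30). Des is on that list too, and how much of its level comes from smooth muscle was not tested.

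The transcripts used were mostly the same in both libraries. Of 26 members with 2 or more annotated transcripts that reached 1 TPM in each library, 23 had the same leading transcript in both. The exceptions were Tnnt1, Tnnt3 and Tnni3, all of them troponins. Tnnt1 was led by Tnnt1-206 in replicate 1 (27.8%) and Tnnt1-201 in replicate 2 (31.4%), so no transcript dominated. In TPM, Tnni3 was led in replicate 1 by Tnni3-204, a 514 nt retained intron form with 33.6%, and in replicate 2 by the coding Tnni3-201 with 60.9%. Counts of the coding Tnni3-201 were 17.8 and 73.1, against 12.4 and 3.41 for Tnni3-204. By counts the coding form thus led in both libraries, and it differed by more than the gene as a whole. Mybpc3 and Ldb3, under 1 TPM in replicate 1, were led by different coding transcripts in each library. The counts of Mybpc3 were all on Mybpc3-202 in replicate 1 (5) and all on Mybpc3-203 in replicate 2 (120). Ldb3-205 had 30.9 and 11.2 counts, and Ldb3-201 had 0 and 46.1.

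Among members at 5 TPM or more in both libraries, the division between named isoforms was stable in some genes and not in others. Myl1-202 held 66.2% and 61.7% of Myl1, and Myl4-202 held 57.4% and 56.5% of Myl4. Tnnt2-207 led Tnnt2 with 50.5% and 58.1%, Tnni1-207 led Tnni1 with 80.1% and 69.8%, and Tnni2-201 led Tnni2 with 80.6% and 94.9%. Myh3-202 held 62.2% and 76.9% of Myh3, Mylpf-201 92.5% and 79.9% of Mylpf, and Actn2-201 98.7% and 76.5% of Actn2. The leading transcripts Actc1-201, Des-201, Tnnc1-202 and Tnnc2-201 held between 90.3% and 100% in each library. The Myl2 level of replicate 2 came from Myl2-201 to 64.3%.

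**Figure D5:**
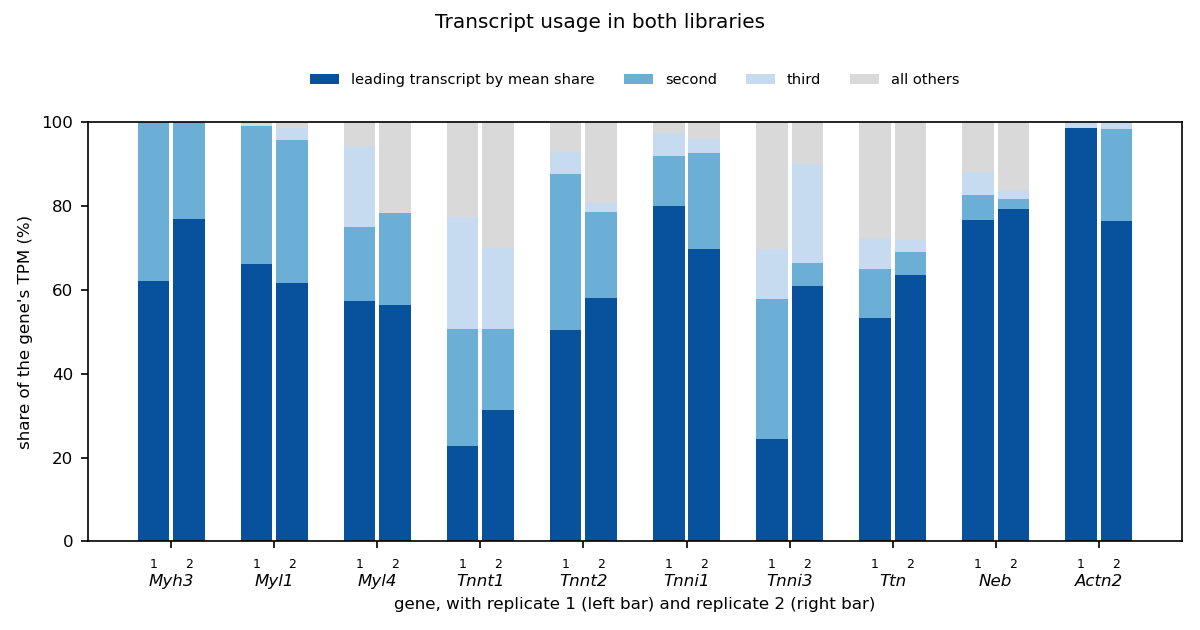
Share of the leading, next and following transcript in the TPM of 10 members, in percent, with replicate 1 as the left bar and replicate 2 as the right bar of each gene and all other transcripts in grey. Neb and Ttn are led by short transcripts in both libraries, and Tnni3 and Tnnt1 are divided among several.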

How the data were processed

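The authors deposited a gene table and a transcript table for each library, per the file headers with expected counts, posterior mean counts, TPM, FPKM and credibility bounds of TPM and FPKM. The deposited expected counts are estimated reads per gene and need not be whole; those of 11 members are not. The deposited TPM values are scaled over all rows, spike-ins included. Spike-ins took 6.27% of counts in replicate 1 and 4.45% in replicate 2, but 13.4% and 9.68% of TPM. The TPM of genes are therefore lowered by unequal amounts in the libraries, which also affects summed levels set side by side. With TPM over gene rows only, 31 members reached 1 TPM in both libraries, against 29 as deposited. The deposited FPKM values are fragments by length and library total, and the deposited upper credibility bounds are a signal in TPM with no fixed sum. The submitters' notes name assembly mm10 and GENCODE M4. Aligner, quantifier and strand are not given in the sources used here.

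GENCODE M21 (GRCm38) gave symbols and coordinates, matched by identifier without version for 42462 of 43346 gene rows. Rows with a number only (0.000171% and 0.000151% of counts) and spike-ins stayed out of library sizes. Detection meant reaching 1 TPM in each library. Ratios of replicate 2 to replicate 1 used expected counts with TMM factors (edgeR 4.0.16, R 4.3.3) for genes with a mean of 10 counts or more, with exact Clopper-Pearson 95% intervals (scipy 1.17.1), and a floor of 3 counts (0.105 and 0.132 CPM). DESeq2 1.42.0 size factors were an alternative. No test was possible with 1 group. The ratio step was tested on simulated data with Poisson error only and as many genes raised as lowered. Only genes well above the minimum of 10 counts were changed there. The simulation therefore cannot show how well ratios near that minimum, or in unbalanced libraries, are recovered. Upstream sequences came from RefSeq (GRCm38.p6).

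The members, the fibre sets and the gene lists were chosen with earlier results of these data known. Members were named with both values where their mean was 1 TPM or more, where they were past 2-fold or where they are heart-restricted in the adult; each context list gave its 3 highest genes and those past 2-fold with a mean of 1 TPM or more, except 1 gene that is not reported here. Myod1, Myog, Myf5, Myf6, Pax7, Chrne, Sln, Clcn1, Tbx5, Tbx20, Kcne1 and genes overlapping a member were named outside this rule, after their values were seen. Alternatives were other thresholds, units, scalings, count minimums, single libraries and the longest coding transcript as length.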

Additional observations from a re-analysis of the deposited data

How the results depend on the processing

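No paired analysis was possible because there is only 1 group. Leaving out each replicate in turn, the members' median was 1.66 to 3.32 TPM (3.46 over the means), and the genes at 1 TPM or more numbered 3 to 9 on the heart list (3 in both libraries) and 2 to 10 on the liver list (2 in both). Members past 2-fold lower numbered 2 as reported (1.58% of all genes), 0 with spike-in scaling (0.503%), 1 at a minimum mean count of 50 (0.339%) and 4 at 1.5-fold (4.21%). Members past 2-fold higher numbered 11 (5.05% of all genes), or 4 of 33 tested without the 10 members of the heart sets, which was chosen after seeing the data. At 5 TPM or more, 14 of 15 members kept their leading transcript, fewer because fewer genes were compared. At 0.5 TPM, 8 endplate, 5 heart and 5 liver genes were detected in both, where 1 TPM gave 5, 3 and 2. Of 172 member ratios under other settings, 144 stayed within their interval of counting, 28 left it, and 0 of those past 2-fold changed sides of 1. Members not past 2-fold did change sides with spike-in scaling, among them Acta1, Myh3, Mylpf and Myl1. The other settings hardly moved the log2 median of all genes (0.022 by total, -0.013 by DESeq2 and -0.018 by posterior means, beside -0.015). Staying within the interval under those settings therefore says little. Of 69 pair ratios, 49 moved by less than the SD between replicates, 20 by more, and 0 of those called apart changed sign. These include the FPKM setting, which differs from TPM by a constant per library. Apart from rounding, pair ratios could not change there, so only the settings that change the length are informative. Members at 1 TPM or more in both ranged from 23 at 2 TPM to 37 at 0.5 TPM. Members under about 10 counts per library were limited by depth.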
